A study of Mus musculus with 58 samples.

Results

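The voltage-gated sodium and calcium channel genes were examined in entorhinal cortex (EC) and in primary visual cortex (PVC) from aged *APOE* targeted replacement mice. The members were all genes whose symbol begins with Scn and a digit, or with Cacna, Cacnb or Cacng, in the tables of both regions. These were 40 of the 31246 genes listed, with 14 sodium channel and 26 calcium channel genes, and 38 of them are described here. Poly(A)+ RNA was sequenced in 58 libraries, and each region was represented by 10 *APOE3/3* and 19 *APOE3/4* mice under the same 29 animal numbers. All mice were C57Bl/6 males aged 14 to 15 months, and in all of them human *APOE* stood in place of the mouse gene under the mouse promoter, so that *APOE3/3* mice carried the human e3 form alone and *APOE3/4* mice carried one copy of e3 and one of e4. According to the study's methods its mice, which included others beside these, came from separate colonies. The methods do not say which of the mice used here came from which colony, and colony was not analysed here.

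The value used for each gene was the authors' mean normalized count, which averages the counts of a region over the mice of both genotypes after division by a size factor for each library. One such mean was used per gene and region. It carries no spread between mice, so no difference below has a test, and the genotypes are not separated. The means of the regions were normalized separately and add up to 49385488 for the EC table and 27058393 for the PVC table, which is 1.83 times as much in the former. To set the regions side by side, each mean was therefore expressed in parts per 1000000 (ppm) of its region's sum, and levels of different genes were compared only after further division by the length of the gene's exons in kb. Where a pair of values is given without a region, the EC comes first. Differences between the EC and the PVC describe the pooled tissue of these mice. In such tissue, fewer cells of a type and less RNA per cell cannot be told apart.

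Voltage-gated sodium channels open when the membrane depolarizes and carry the inward current of the action potential. Each has a large α subunit that forms the pore and senses voltage, together with small β subunits that alter gating and take part in cell adhesion. Voltage-gated calcium channels turn depolarization into calcium entry, which triggers transmitter release at nerve terminals and calcium signaling in cell bodies and dendrites. Their pore is the α1 subunit, which in the L, P/Q, N and R types is joined by an intracellular β subunit and an extracellular α2δ subunit. Most of the γ family members of the brain are better known as TARPs, which escort AMPA-type glutamate receptors to the synapse.

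All 38 genes were listed above 0 in both regions, but over a very wide range. In the EC 26 of them and in the PVC 25 had a mean normalized count above 1000, whereas 8 had one under 100 in each region. The highest level per kb in both regions among these genes belonged to the calcium channel β subunit *Cacnb3*, at 76.4 ppm per kb in the EC against 94.2 in the PVC. This placed it at percentiles 97.5 and 98.1 of the 20667 genes with an annotated length. The lowest was the skeletal muscle sodium channel *Scn4a*, with mean normalized counts of 1.20 and 0.449. The order of the 38 levels per kb was nearly the same in the EC and the PVC (Spearman rho 0.963 over the 38 genes, which are not replicates of one another and have the same lengths in both regions).

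**Figure D1:**
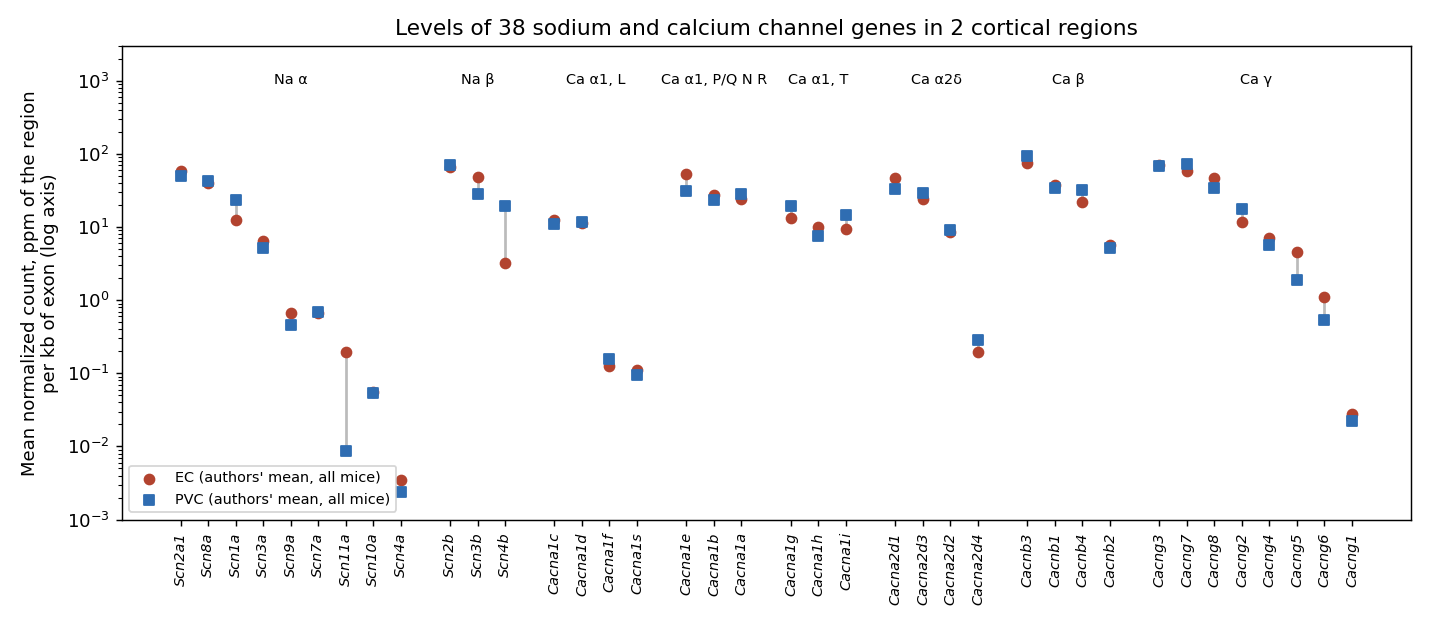
Levels of 38 channel genes, grouped by subunit family and ordered within a family by the EC level. The vertical axis is the authors' mean normalized count in ppm of the region's sum and per kb of exon, on a log scale. Circles stand for the EC and squares for the PVC, each a single mean over all mice of the region. *Cacnb3* is the highest gene and *Scn4a* the lowest, and the widest gaps between the regions are those of *Scn11a*, *Scn4b* and *Cacng5*.

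Among the sodium channel α subunits, *Scn2a1* and *Scn8a* stood first and second in both regions. *Scn2a1* encodes the channel of excitatory neurons that is prominent in the proximal axon, and *Scn8a* the main channel of mature nodes of Ranvier and distal initial segments. *Scn2a1* had mean normalized counts of 26519 in the EC compared with 12670 in the PVC, or 58.0 and 50.6 ppm per kb. *Scn8a* had mean normalized counts of 23657 and 14155, or 39.5 and 43.1 ppm per kb. Both differed little between the regions once scaled, with EC levels 1.15 and 0.916 times the PVC levels. Together with *Scn1a* and *Scn3a* they made up nearly all of the summed level of the 9 α subunits described.

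*Scn1a*, the channel on which fast-spiking interneurons depend, was the α subunit that leaned most toward the PVC. Its mean normalized count was 6865 in the EC against 7108 in the PVC, although the EC table sums to 1.83 times the PVC table. In ppm per kb this is 12.5 against 23.7, a PVC level 1.89 times the EC level and a log2 EC/PVC ratio of −0.92. Only 2.37% of the 15642 genes with a mean of at least 10 in both regions had a ratio as low. Within the 9 α subunits of a region, which needs no scaling between the tables, *Scn1a* contributed 10.6% of the summed level in the EC compared with 19.1% in the PVC. The *Scn2a1* level was 4.62 times that of *Scn1a* in the EC and 2.13 times in the PVC.

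*Scn3a*, a channel best known from the developing brain, had a mean normalized count of 4002 in the EC against 1778 in the PVC, with an EC level 1.23 times the PVC level.

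The channels of peripheral sensory neurons and skeletal muscle were near the bottom of the range. *Scn9a*, a sensory neuron channel linked to pain, had mean normalized counts of 354 and 135, and *Scn7a*, an atypical channel associated with sodium sensing, 242 and 139. *Scn10a*, another sensory neuron channel, had mean normalized counts of 17.5 in the EC against 9.36 in the PVC. *Scn11a*, of the same sensory group, was listed at 56.3 in the EC compared with 1.36 in the PVC, a level 22.8 times higher in the EC, although its PVC mean was under the minimum of 10 used for counting genes. A mean cannot show whether all mice or only some of them contributed the reads behind *Scn11a*.

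Among the β subunits, *Scn2b*, *Scn3b* and *Scn4b* had unlike ratios. *Scn2b*, which binds the α subunit through a disulfide bond, had mean normalized counts of 14822 and 8674, or 65.8 and 70.3 ppm per kb. *Scn3b* had 10983 and 3482, which puts its level 1.73 times higher in the EC (log2 ratio 0.79).

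*Scn4b* had the most PVC-leaning ratio of all members. This β subunit is known for resurgent sodium current, the brief reopening of channels on repolarization that favors fast repetitive firing. Its mean normalized count was 786 in the EC compared with 2587 in the PVC, which scale to 3.22 and 19.4 ppm per kb. The PVC level was 6.01 times the EC level, and only 0.0703% of the 15642 genes had a log2 EC/PVC ratio at or under its −2.59. Within a region, *Scn3b* stood at 15.0 times the level of *Scn4b* in the EC but at 1.44 times in the PVC.

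*Scn4b* and *Scn2b* are direct neighbors, transcribed in the same direction on chromosome 9 of NCBIM37 with 8.37 kb between them. *Scn2b* runs from 44925959 to 44938153 and *Scn4b* from 44946520 to 44962235. Their log2 EC/PVC ratios were −0.10 and −2.59, so the lean toward the PVC was not shared across this short interval. The promoter windows of this pair, and those of *Scn1a* and *Cacna1e* as the sodium α subunit with the lowest ratio and the calcium α1 subunit with the highest, are shown to set these unlike ratios beside the sequence at the start of each gene, and the 4 were chosen after the ratios were seen. Each window holds 250 bases before and 50 after a RefSeq start site on GRCm38.p6, printed 5′ to 3′ on the gene's strand, with CG dinucleotides in capitals. *Scn4b* lies at chr9:45138374-45138673 (+), *Scn2b* at chr9:45117626-45117925 (+), *Cacna1e* at chr1:154725871-154726170 (−) and *Scn1a* at chr2:66440788-66441087 (−).
Scn4b: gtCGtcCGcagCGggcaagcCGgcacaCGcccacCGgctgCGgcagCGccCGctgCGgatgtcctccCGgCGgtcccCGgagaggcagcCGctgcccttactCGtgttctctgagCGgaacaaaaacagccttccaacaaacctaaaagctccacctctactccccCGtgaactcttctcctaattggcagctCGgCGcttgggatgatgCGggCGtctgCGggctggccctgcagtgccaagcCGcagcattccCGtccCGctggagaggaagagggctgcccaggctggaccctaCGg
Scn2b: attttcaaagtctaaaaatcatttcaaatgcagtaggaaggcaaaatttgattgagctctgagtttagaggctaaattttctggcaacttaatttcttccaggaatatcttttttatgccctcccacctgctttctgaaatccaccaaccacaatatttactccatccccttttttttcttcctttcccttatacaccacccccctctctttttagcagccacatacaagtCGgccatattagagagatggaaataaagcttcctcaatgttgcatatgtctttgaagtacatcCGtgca
Cacna1e: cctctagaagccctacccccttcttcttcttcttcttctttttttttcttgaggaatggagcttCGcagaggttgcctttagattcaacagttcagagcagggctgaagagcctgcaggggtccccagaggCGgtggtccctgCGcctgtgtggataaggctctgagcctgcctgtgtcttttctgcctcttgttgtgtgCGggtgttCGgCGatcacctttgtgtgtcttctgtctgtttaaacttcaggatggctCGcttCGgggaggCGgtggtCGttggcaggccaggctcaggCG
Scn1a: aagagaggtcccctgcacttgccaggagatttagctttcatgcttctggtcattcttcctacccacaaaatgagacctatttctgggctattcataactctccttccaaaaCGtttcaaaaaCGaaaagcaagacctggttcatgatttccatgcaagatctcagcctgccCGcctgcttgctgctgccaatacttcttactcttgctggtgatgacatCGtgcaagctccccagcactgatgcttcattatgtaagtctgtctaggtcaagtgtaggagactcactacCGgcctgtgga

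The *Scn4b* window had a GC content of 66.3% and 26 CG dinucleotides, a number reached or passed by 16.9% of the 32851 RefSeq windows. The *Scn2b* window had a GC content of 38.3% and 2 CG dinucleotides, and 23.3% of all windows had no more than that. *Cacna1e* and *Scn1a* stood between them, with 11 and 5 CG dinucleotides at a GC content of 55.3% and 47.3%. Windows were found for 30 of the 38 members, 41 in all, with a median GC content of 59.3% and a median of 9 CG dinucleotides, against 52.7% and 7 over all windows. The members without a matched window were *Scn3a*, *Scn3b*, *Cacna1a*, *Cacna1g*, *Cacna1h*, *Cacna2d4*, *Cacng1* and *Cacng4*. The TATA box letters TATAAA, on either strand, were in 4.88% of the member windows and 13.6% of all windows. Among the members, only windows of *Cacna1d* and *Scn2a1* held them. The GC box letters GGGCGG were in 39.02% of the member windows and 35.7% of all windows. CCAAT was in 24.4% and 37.4%, and TGACG, part of the cAMP response element, in 14.6% and 20.8%. GGGCGG itself contains a CG dinucleotide, as does TGACG. These matches describe letters in a short window around annotated starts and were not related to the levels.

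The comparison of the regions was made over the 34 members whose mean normalized count reached 10 in both, and a level at least 1.5 times higher in one region was counted. By this rule 4 members were higher in the EC (11.8%, where 7.17% of all 15642 genes were) and 4 in the PVC (11.8%, where 5.01% of all genes were). Without a minimum on the means, 5 and 4 of 38 members were counted, where 16.5% and 10.0% of all genes were. An excess over all genes was then not seen in the EC and was near nil in the PVC. At a minimum mean of 100, 3 and 4 of 30 members were counted, where 4.12% and 4.22% of all genes were. How the shares compared thus depended on the minimum. With the minimum of 10, the EC members were *Cacng5*, *Cacng6*, *Scn3b* and *Cacna1e*. The PVC members were *Scn4b*, *Scn1a*, *Cacna1i* and *Cacng2*. The 3 members just inside the limit were *Cacng2* and *Cacna1i*, 1.53 and 1.56 times higher in the PVC, and *Cacna1e*, 1.72 times higher in the EC, and those just outside it were *Cacnb4*, *Cacna2d4* and *Cacna1g*, 1.49, 1.49 and 1.46 times higher in the PVC. The median log2 EC/PVC ratio of the 34 members was 0.02, as was that of all genes, and 17 of the 34 were above 0. The middle of the family was thus that of all genes, and its members spread to both sides. Beside the members higher in the PVC, the oligodendrocyte markers had a median log2 ratio of −1.48 and the interneuron markers one of −0.30, with a range from −1.67 for *Pvalb* to 0.35 for *Sst*. Beside those higher in the EC, the meningeal markers had a median of 1.09 and the oligodendrocyte precursor markers of 0.55. The 3 hippocampal markers with a mean of at least 10 in both regions had a median of 1.82, with a range from −0.23 for *Prox1* to 2.15 for *Fibcd1*. The part of these cells and tissues in the members' ratios was not tested. Without replicate values it cannot be said which of these differences exceed the spread between mice.

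**Figure D2:**
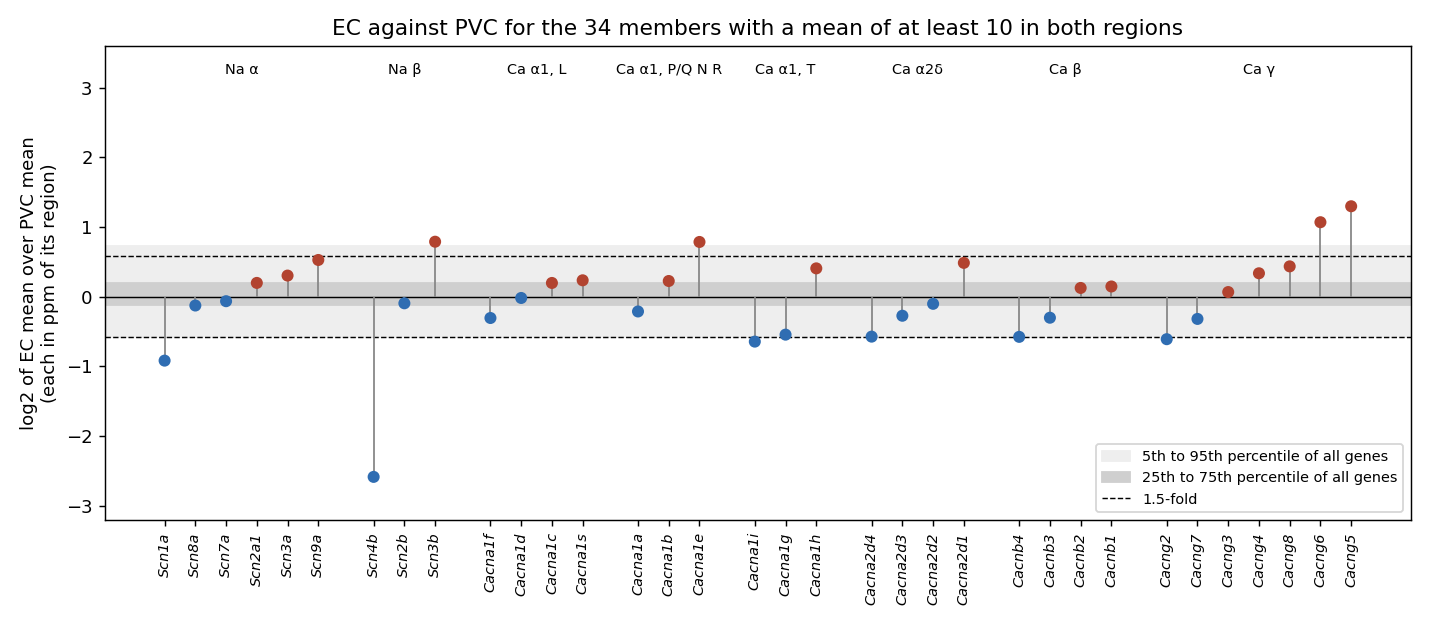
The log2 ratio of the EC level to the PVC level for the 34 members with a mean of at least 10 in both regions, grouped by family and ordered by the ratio. Each point is a ratio of 2 means from separately normalized tables, scaled to their sums, with no error. The shaded bands hold the middle 50% and 90% of all 15642 genes and the dashed lines mark 1.5-fold. *Cacng5* at 1.30 is the highest, and *Scn4b* at −2.59 lies farthest outside the bands.

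Among the calcium channel α1 subunits, *Cacna1e*, the R-type channel of dendrites and terminals, had the highest level per kb of exon in both regions and was the only α1 subunit to pass 1.5-fold toward the EC. With the longest transcript as length, it remained above *Cacna1a* in the EC, at 53.9 against 34.9 ppm per kb, but was below it in the PVC, at 31.2 against 40.4. Its mean normalized count was 33764 in the EC compared with 10732 in the PVC, or 53.9 and 31.2 ppm per kb. The EC level was 1.72 times the PVC level (log2 ratio 0.79, at the 95.6th percentile of all genes). *Cacna1e* lies on chromosome 1 of NCBIM37 from 156239649 to 156573049. It made up 33.1% of the summed α1 level in the EC against 21.2% in the PVC.

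*Cacna1a* and *Cacna1b*, the P/Q-type and N-type channels that drive fast transmitter release, had nearly equal counts in the EC before division by length. Their mean normalized counts there were 13662 and 13629, and in the PVC 8673 and 6389. Per kb of exon, the N-type level was 1.15 times the P/Q-type level in the EC and 0.846 times in the PVC. This order depends on the length used, since with the longest transcript *Cacna1a* was the higher of these genes in both regions, at 34.9 against 28.3 ppm per kb in the EC and 40.4 against 24.3 in the PVC. By exon length, *Cacna1e* stood at 2.22 times the level of *Cacna1a* in the EC and 1.11 times in the PVC, and by the longest transcript the PVC order was the opposite. The ratio of one gene's EC level to its PVC level does not change with the length.

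The T-type channels open at low voltages and support burst firing, and their members did not lean the same way. *Cacna1i* had mean normalized counts of 4582 in the EC compared with 3927 in the PVC, a level 1.56 times higher in the PVC. *Cacna1g*, with 6619 and 5292, was 1.46 times higher in the PVC. *Cacna1h*, with 4861 and 2009, was 1.33 times higher in the EC. The *Cacna1h* level was 1.07 times that of *Cacna1i* in the EC and 0.516 times in the PVC. As a class, the T-type genes gave 20.1% of the summed α1 level in the EC against 28.3% in the PVC, and the P/Q, N and R types 65.0% and 56.3%. *Cacna1h* shares 158 exon bases with *Tpsg1* in the annotation, and *Cacna1d* 518 with *Chdh*, and reads there could have been left out of the counts or assigned to either gene.

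The abundant L-type channels, which couple calcium entry to gene transcription, were close to equal. *Cacna1c* had mean normalized counts of 5464 and 2612 and *Cacna1d* 5282 and 2931, with EC levels 1.15 and 0.987 times the PVC levels. The class held 14.9% of the α1 level in the EC compared with 15.4% in the PVC. *Cacna1f*, the retinal form, had mean normalized counts of 57.3 and 38.8, and *Cacna1s*, the skeletal muscle form, 36.4 and 16.9.

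Of the auxiliary subunits, the α2δ family shifted toward *Cacna2d1* in the EC. This gene, whose product binds gabapentin and promotes delivery of channels to terminals, had mean normalized counts of 19308 and 7557 and an EC level 1.40 times the PVC level. *Cacna2d3* had 4432 and 2936, a level 1.21 times higher in the PVC. *Cacna2d1* made up 58.5% of the α2δ level in the EC against 46.1% in the PVC, and *Cacna2d3* 30.5% and 40.7%. *Cacna2d2* was close to equal, with 2549 and 1500. *Cacna2d4*, known from the retina, had 55.2 and 45.0.

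The calcium channel β subunits bind the α1 subunit inside the cell and bring it to the membrane. *Cacnb3* led the family in both regions, with mean normalized counts of 11768 and 7950 and levels of 76.4 and 94.2 ppm per kb. *Cacnb4*, with 9620 and 7864, was 1.49 times higher in the PVC. *Cacnb1*, with 8356 and 4137, had an EC level 1.11 times the PVC level and stood at 1.71 times *Cacnb4* in the EC and 1.04 times in the PVC. *Cacnb2* had mean normalized counts of 2603 and 1307. None of the 4 passed 1.5-fold.

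**Figure D3:**
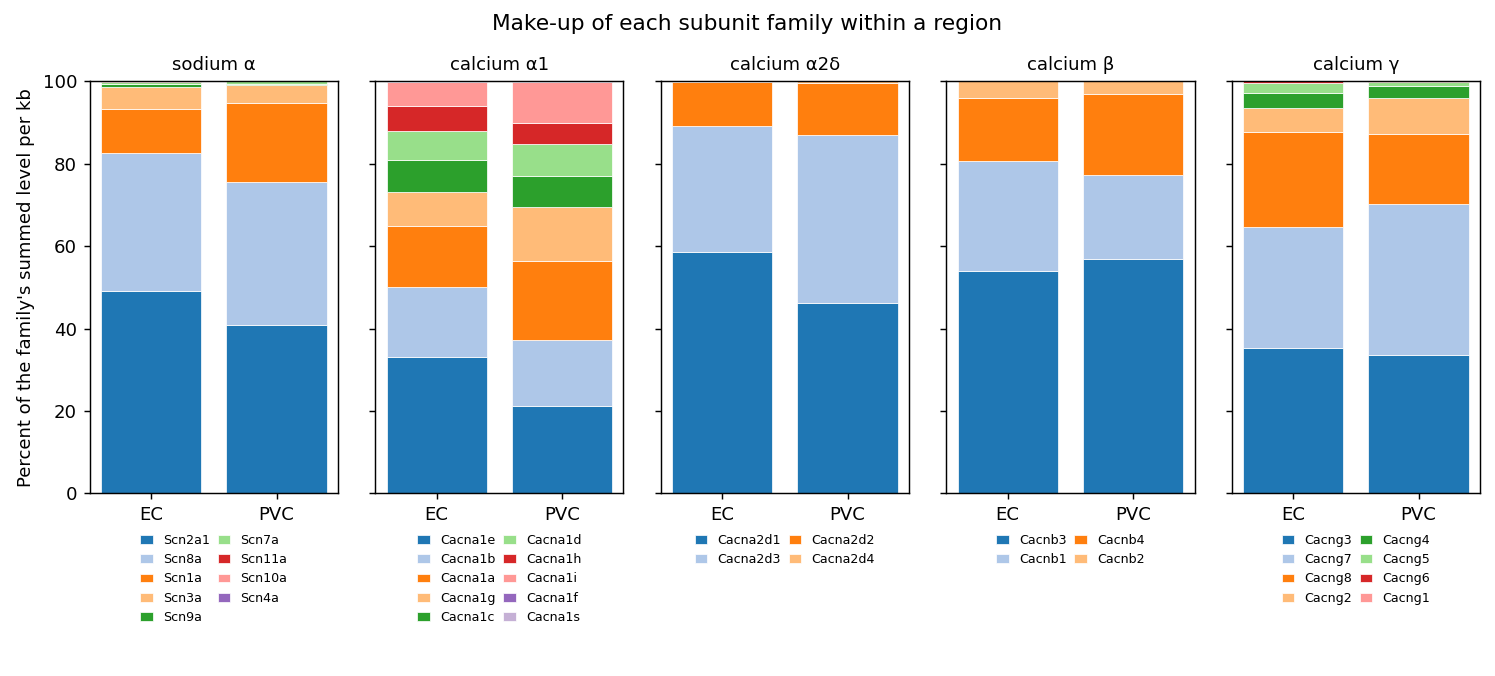
The make-up of 5 subunit families within the EC and within the PVC. Each bar stacks the percent of the family's summed level per kb that belongs to each gene, from the authors' means over all mice, and adds to 100%. *Scn1a* takes 10.6% of the sodium α bar in the EC compared with 19.1% in the PVC, and *Cacna1e* 33.1% and 21.2% of the calcium α1 bar.

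The γ family spread toward both regions. *Cacng2*, which encodes stargazin, had mean normalized counts of 3169 in the EC against 2651 in the PVC, a level 1.53 times higher in the PVC. *Cacng8*, the TARP known for its abundance in the hippocampus, had 1512 and 613, a level 1.35 times higher in the EC. The *Cacng8* level was 3.96 times that of *Cacng2* in the EC and 1.92 times in the PVC, although the annotated exons of *Cacng8* hold coding sequence only, 0.663 kb, which raises its level per kb in both. *Cacng3*, with 5314 and 2781, was nearly equal after scaling, at an EC level 1.05 times the PVC level. *Cacng4*, with 1264 and 549, had an EC level 1.26 times the PVC level.

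*Cacng5* and *Cacng7* are TARPs of a second type with weaker effects on receptor delivery, and they leaned opposite ways. *Cacng5* had mean normalized counts of 868 and 193, an EC level 2.46 times the PVC level (log2 ratio 1.30, at the 98.4th percentile of all genes). *Cacng7* had 6425 and 4393, an EC level 0.801 times the PVC level. *Cacng6*, which is expressed mainly in muscle, had 43.3 and 11.3, an EC level 2.10 times the PVC level from a PVC mean close to the minimum. *Cacng1*, the γ subunit of skeletal muscle, was listed at 1.71 and 0.751.

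Several members lie in clusters of paralogs, and neighbors within a cluster often had different ratios. On chromosome 2 of NCBIM37, *Scn3a*, *Scn2a1*, *Scn1a*, *Scn9a* and *Scn7a* lie in this order between 65295175 and 66622971, with log2 EC/PVC ratios of 0.30, 0.20, −0.92, 0.53 and −0.06. The widest gap between them, 503 kb, is that from *Scn2a1* to *Scn1a*. *Scn1a* was the only one of these 5 to pass 1.5-fold, and *Scn9a*, 39.2 kb away, had an EC level 1.44 times the PVC level. On chromosome 9, *Scn10a* and *Scn11a* follow each other from 119517584 to 119734574, with log2 ratios of 0.03 and 4.51, both of which rest on PVC means under 10. On chromosome 7, *Cacng7*, *Cacng8* and *Cacng6* follow each other from 3333055 to 3435658, with log2 ratios of −0.32, 0.44 and 1.07. On chromosome 11, *Cacng1*, *Cacng4* and *Cacng5*, from 107564532 to 107776369, had ratios of 0.32, 0.34 and 1.30. That of *Cacng1* rests on means of 1.71 and 0.751, under 10 in both regions.

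Genes whose products work with the channels were examined by the same rule, by which 7.17% of all 15642 genes were higher in the EC and 5.01% in the PVC. Of 9 sodium channel partners, among them the axon initial segment anchor *Ank3* and the spectrin *Sptbn4*, 1 was at least 1.5-fold higher in the EC and 0 were higher in the PVC. Their log2 ratios ran from −0.16 for *Fgf14* to 0.62 for *Fgf11*, both of them intracellular fibroblast growth factor homologs that bind α subunits. Of the 15 calcium channel partners with a mean of at least 10 in both regions, 1 was higher in the EC and 4 were higher in the PVC. They ran from *Stac2* at −1.95, with mean normalized counts of 1684 and 3573, to its paralog *Stac* at 1.43, with 137 and 27.9, and both encode adaptors that bind α1 subunits. *Rims3* at −1.89, *Cabp1* at −1.41 and *Gem* at −0.94 were also counted as higher in the PVC, *Gem* from mean normalized counts of only 44.1 and 46.5. The 3 calmodulin genes, which regulate both kinds of channel, were close together at −0.20, −0.19 and −0.20. These genes between the ends of the range were named after their values were seen. Of 8 AMPA receptor genes and partners of the γ subunits, 2 were higher in the EC, and the range ran from −0.11 for *Gria3* to 1.06 for *Shisa9*.

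Marker genes of cell types and tissues were examined in the same way, and those of several cell types differed between the regions. None of the lists was made of markers of the EC or of the PVC, so the region labels were not checked by them. *Slc17a7*, the vesicular glutamate transporter of cortical excitatory neurons, had mean normalized counts of 77884 and 38116, and of the 3 markers of these cells *Tbr1* was higher in the PVC, at a log2 ratio of −0.60. The 3 general neuronal markers that were matched ran from −0.52 for *Snap25* to 0.38 for *Stmn2*. *Rbfox3*, also on that list, was not matched to a listed symbol and has no value here. All 5 oligodendrocyte markers were lower in the EC, with log2 EC/PVC ratios from −1.60 for *Mobp* to −1.34 for *Mbp*, and their summed level was 840 ppm in the EC compared with 2178 in the PVC. Among 7 interneuron markers, *Pvalb*, which marks fast-spiking cells, had the lowest ratio, at −1.67, and *Sst* the highest, at 0.35. The summed interneuron level was 803 ppm in the EC against 914 in the PVC. All 5 meningeal markers were higher in the EC, up to 3.09 for *Dcn*, with a summed level of 158 against 41.2 ppm. Of 3 hippocampal markers with a mean of at least 10 in both regions, *Fibcd1* and *C1ql2* were higher in the EC, at 2.15 and 1.82, and *Prox1* was at −0.23. The summed level over all 5 hippocampal markers was 70.5 and 24.5 ppm. Most of the EC sum came from *Fibcd1*, with mean normalized counts of 2684 and 330, while *Prox1* had 410 and 262. Microglial and endothelial markers stayed between 0.01 and 0.17, astrocyte markers ran from −0.33 to 0.64 and oligodendrocyte precursor markers from 0.49 to 0.60. Choroid plexus markers split, from −2.15 for *Ttr* to 1.48 for *Kcnj13*, striatal markers ran from −0.38 to 0.14, and the thalamic pair, *Tcf7l2* and *Prkcd*, stood at −0.90 and −0.27. Skeletal muscle markers ran from −0.58 for *Acta1* to 0.21 for *Myh4*, with a summed level of 9.16 ppm in the EC compared with 12.7 in the PVC.

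**Figure D4:**
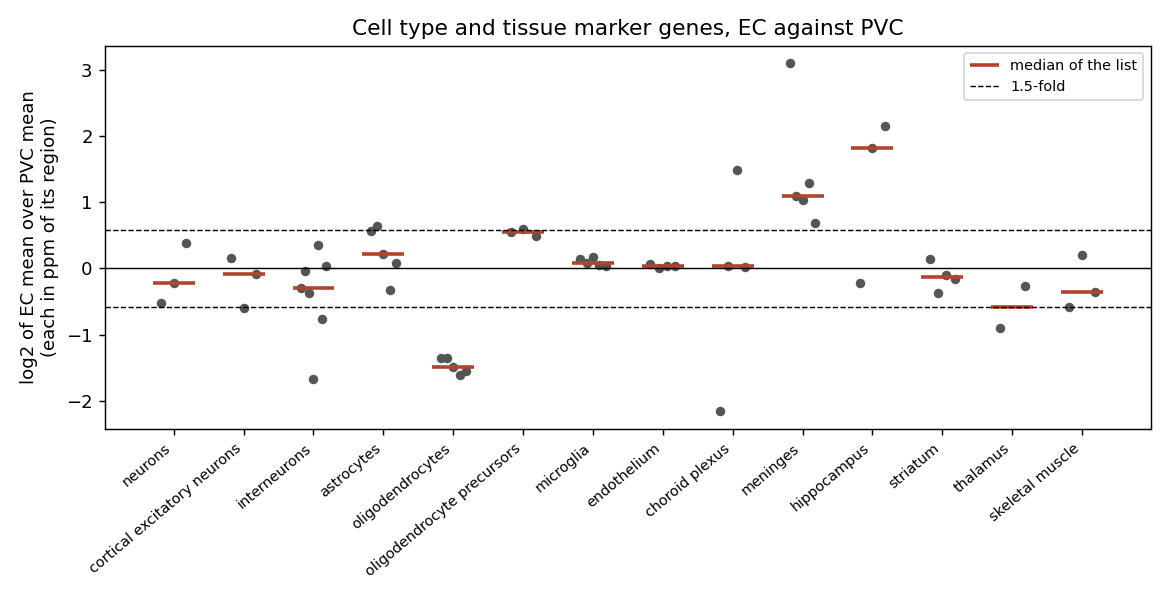
The log2 ratio of the EC level to the PVC level for cell type and tissue markers with a mean of at least 10 in both regions. Each point is a gene, the bar is the median of its list, and the dashed lines mark 1.5-fold. All oligodendrocyte markers lie under −1.3 and all meningeal markers above 0.6, while those of microglia and endothelium lie close to 0.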

How the data were processed

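RNA-sequencing libraries from the EC and PVC of *APOE3/3* and *APOE3/4* mice were analysed from 1 table per region. Per the labels and the study's methods, the authors aligned single-end reads of 149 bases to mm9 with TopHat2 2.0.6 and Bowtie2 2.0.2.0, counted them per gene with HTSeq and compared the genotypes with DESeq2 1.10.1. The mean normalized count, deposited by the authors and treated here as a signal, is a mean over all libraries of a region. The 5 other columns of each table hold the authors' own comparison of the genotypes (log2 fold change, its standard error, test statistic and p-values before and after adjustment) and were not used. Values of single mice, and depth per library, were not analysed here, so precision is unknown and no test was run.

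Means were scaled to the sum of their region (ppm). Lengths and positions came from GENCODE vM1 on NCBIM37, the same build, which held 66.1% of the 31246 symbols and 97.0% of the EC signal. Spreadsheet dates stood for 25 symbols. Region ratios were obtained in Python 3.11.15 (pandas 2.3.3, numpy 2.4.6, scipy 1.17.1; figures by matplotlib 3.10.9) and the code was tested on simulated data. Promoters came from RefSeq. Results for 2 members and 1 marker, and the make-up of the sodium β family, are not reported here, and all counts over members leave these genes out. The other members are described by role, with marker lists and with partners at the ends of their list's range or named after their values were seen. Members, partner lists and marker lists were chosen with earlier results of these data known. Alternatives were other scalings, minima, folds and lengths.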

Additional observations from a re-analysis of the deposited data

How the results depend on the processing

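No paired analysis was possible because the tables hold only means over the mice of a region, and for the same reason no mouse could be left out. The scaling was changed to the median gene-wise ratio or to the sum without the 50 highest genes of each region. Neither moved any of the 34 member ratios by 0.1 or more on the log2 scale, and both counts stayed within 1.5 times. Each scaling shifts the log2 ratio of every gene by the same amount, so the order of the ratios could not change. The counts followed the fold. At a log2 limit of 0.32, the lower fold tried, there were 9 members higher in the EC against 7 in the PVC, where 15.7% and 10.2% of all genes were. At a fold of 2 there were 2 and 1, where 2.88% and 2.04% of all genes were. With a minimum mean of 100, 3 of 30 members were higher in the EC and 4 lower, where 4.12% and 4.22% of all genes were. With no minimum, 5 of 38 were higher in the EC and 4 lower, where 16.5% and 10.0% of all genes were, so the members' shares were then not above those of all genes in the EC and close to them in the PVC. Without division by length, the share of *Cacnb3* in the PVC moved to 37.4% and 26 other shares moved by over 1.5 times, among them those of *Cacna2d3*, to 16.8% (EC) and 24.4% (PVC), and *Scn8a* stood above *Scn2a1* in the PVC. With the longest transcript as length, the values of *Cacnb2* moved by over 1.5 times, its level per kb to 13.4 and 12.2, and *Cacna1a* was above *Cacna1b* in the EC and above *Cacna1e* in the PVC. Low means such as those of *Scn4a*, *Scn10a*, *Scn11a* and *Cacng1* are under 10 in the PVC, and no error is known for any ratio.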
